A study of Mus musculus with 8 samples.

Results

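The ligands of the TGF-beta, activin and myostatin branch, with their main receptors, were followed on arrays of muscle satellite cells that differentiated in culture, from Dnmt3a-KO mice and WT littermates. Satellite cells are the resident stem cells that repair muscle fibres. The 10 genes were Tgfb1, Tgfb2, Tgfb3, Tgfbr1, Tgfbr2, Inhba, Inhbb, Mstn, Gdf11 and Gdf15, taken as every non-control spot that carries 1 of these gene names. They had 13 probes of 39429 on the array, in 31 spots of 43020, and all 10 genes entered the fit of 19665 genes. No member was lost to the filter on dim probes: each of the 13 probes was well above background on 8 of 8 arrays, and none was saturated.

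Dnmt3a-KO mice are labelled as a knockout of Dnmt3a, a de novo DNA methyltransferase, and WT mice were their littermates. Per the labels all mice were 8 weeks old and male, and the cells came from the extensor digitorum longus (EDL) of the lower hindlimb, grew for 5 days in growth medium, were replated at equal number and differentiated for 2, 4, 5 or 6 days. Each genotype had 1 array per day, 4 arrays per genotype. The sources used here do not give the promoter or Cre behind the deletion, the number of mice behind an array, or whether the days are separate cultures, so p-values measure the spread between these arrays, which may be partly technical.

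TGF-beta, activin and myostatin ligands are secreted dimers that bring a type II and a type I receptor kinase together. The type I receptor then phosphorylates Smad2 and Smad3, which enter the nucleus with Smad4. In muscle, myostatin (Mstn) restrains growth, and TGF-beta and activin signals hold back myoblast differentiation in culture. Gdf15, a distant relative, acts on appetite through a brainstem receptor and is induced by cellular stress.

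The probe sequences show what was measured. The Tgfb1 and Tgfb2 probes lie in the coding sequence of the mature ligands, where family members resemble each other, and are printed 5′ to 3′ with mm9 coordinates, the bases that are identical in the ungapped overlap in capitals. They matched at 28 of 41 overlapping bases.
Tgfb1 probe (chr7:26489877-26489936, plus strand): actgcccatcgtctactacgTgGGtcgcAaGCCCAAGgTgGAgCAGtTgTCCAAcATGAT
Tgfb2 probe (chr1:188449333-188449392, minus strand): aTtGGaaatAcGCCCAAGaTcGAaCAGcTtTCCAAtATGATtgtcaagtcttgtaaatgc
The Inhba and Gdf11 probes are likewise coding and are shown because Inhba, Tgfb1 and Gdf11 had the largest genotype differences on day 2.
Inhba probe (chr13:16118634-16118693, plus strand): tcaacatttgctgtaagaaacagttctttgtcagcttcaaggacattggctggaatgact
Gdf11 probe (chr10:128322284-128322343, minus strand): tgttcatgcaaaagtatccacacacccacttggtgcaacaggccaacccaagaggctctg

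Because Dnmt3a methylates CpG sites, the 250 bases before the start site of the 5 members whose signal changed with day are printed from RefSeq (GRCm38.p6), 5′ to 3′ on the gene's strand, with each CpG in capitals. DNA methylation itself was not measured here. RefSeq held promoters of 9 of the 10 genes.
Tgfb1 promoter (chr7:25686752-25687001, plus strand): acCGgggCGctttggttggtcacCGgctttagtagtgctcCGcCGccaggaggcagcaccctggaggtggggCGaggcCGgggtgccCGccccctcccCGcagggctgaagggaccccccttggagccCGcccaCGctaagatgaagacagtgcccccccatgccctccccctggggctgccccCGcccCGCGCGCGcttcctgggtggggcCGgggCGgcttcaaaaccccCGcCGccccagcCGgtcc
Inhba promoter (chr13:16011601-16011850, plus strand): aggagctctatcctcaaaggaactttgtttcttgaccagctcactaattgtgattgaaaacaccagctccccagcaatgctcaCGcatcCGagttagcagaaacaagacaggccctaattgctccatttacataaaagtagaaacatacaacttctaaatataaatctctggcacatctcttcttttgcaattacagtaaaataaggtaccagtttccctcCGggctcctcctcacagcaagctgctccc
Inhbb promoter (chr1:119422249-119422498, minus strand): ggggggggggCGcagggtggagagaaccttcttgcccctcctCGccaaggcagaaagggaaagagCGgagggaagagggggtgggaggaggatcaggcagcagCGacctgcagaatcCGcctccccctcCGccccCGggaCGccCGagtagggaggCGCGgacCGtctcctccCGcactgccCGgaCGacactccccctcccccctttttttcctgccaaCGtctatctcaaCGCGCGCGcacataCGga
Mstn promoter (chr1:53061390-53061639, plus strand): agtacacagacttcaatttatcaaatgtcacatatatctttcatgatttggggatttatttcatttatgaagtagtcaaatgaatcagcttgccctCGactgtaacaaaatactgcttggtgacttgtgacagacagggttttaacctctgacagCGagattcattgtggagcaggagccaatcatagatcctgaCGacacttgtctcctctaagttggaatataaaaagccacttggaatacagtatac
Gdf15 promoter (chr8:70632457-70632706, minus strand): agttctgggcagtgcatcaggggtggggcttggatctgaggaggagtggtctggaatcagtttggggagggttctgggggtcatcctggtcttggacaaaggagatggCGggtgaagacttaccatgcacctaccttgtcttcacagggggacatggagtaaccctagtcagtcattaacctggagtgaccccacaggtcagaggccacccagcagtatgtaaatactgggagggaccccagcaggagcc
Tgfb1 and Inhbb each hold 21 CpG sites in this window, more than 83.7% of 32851 promoter windows of mouse genes. Inhba and Mstn hold 3 each and the Gdf15 window shown holds 1, against a median of 6 over all windows, and a second Gdf15 start site holds 6. The CpG-rich and the CpG-poor promoters are both found among the genes that rose with day. The Mstn window holds 4 E-boxes (CANNTG, the letters bound by MyoD-family factors), of which none is CAGCTG. The windows of Tgfb1, Inhba and Inhbb and the Gdf15 window shown hold no E-box, and that of the second Gdf15 start site holds 3. Of all windows, 66.2% hold at least 1 E-box and 13.0% a CAGCTG, which is itself an E-box. On both strands, CAGAC occurred 2 times in Mstn and 1 time in the Gdf15 window shown (42.2% of all windows hold it), TGANTCA occurred 1 time in Mstn (6.75% of all windows) and TGATGNAA in none of the 5 windows (3.45% of all windows). TATAAA occurred in Mstn, 29 bases before the start site, and in Inhba (12.4% of all windows). These matches describe letters and not bound sites.

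Before the results, some facts of the arrays bear on them. Dnmt3a signal was lower in Dnmt3a-KO cells on 4 of 4 days, at 24.0, 52.5, 54.2 and 38.9% of the array's 75th percentile (days 2, 4, 5 and 6), against 51.9, 265.3, 249.8 and 203.5% in WT cells. Its mean difference was -2.01 ± 0.60 log2 units (SD over 4 days, limma adjusted p = 0.102). The 2 day 2 arrays were scanned on a G2505C scanner and the other 6 on a G2505B scanner, and slide 1 held day 2, slide 2 days 4 and 5, and slide 3 day 6, each with both genotypes. Sex-linked transcripts went against the labels: 4 Y-linked genes (Uty, Kdm5d, Ddx3y, Eif2s3y) passed the background call on the day 2 arrays of both genotypes alone, whereas Xist, the RNA that silences an X chromosome in females, passed it on the 6 later arrays alone. Day 2 therefore cannot be told apart from slide, scanner, extraction software and the sex-linked transcripts. The cell type label was checked on muscle markers: the summed signal of the 10 myogenic markers on the array was 37500 to 43580% in Dnmt3a-KO cells and 35260 to 46420% in WT cells, with Myog, Myod1 and Desmin (Des) well above background on every array and Myf5 at the floor on 8 of 8 arrays.

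No member passed the test for a genotype effect, and 2 of the 19665 genes did (0.0102%). At an unadjusted p under 0.05 there were 3 of the 10 members, Tgfb1, Tgfbr1 and Inhbb, beside 2531 of the 19665 genes, a larger share among the members. Every level below is a percentage of the array's 75th percentile signal, from 1 array per genotype and day, and every difference is Dnmt3a-KO minus WT in log2 units with the SD over the 4 days. The median difference of the 10 members was 0.13, against -0.01 over all genes tested. In bulk cultures, fewer cells of a type and less RNA per cell cannot be told apart.

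**Figure D1:**
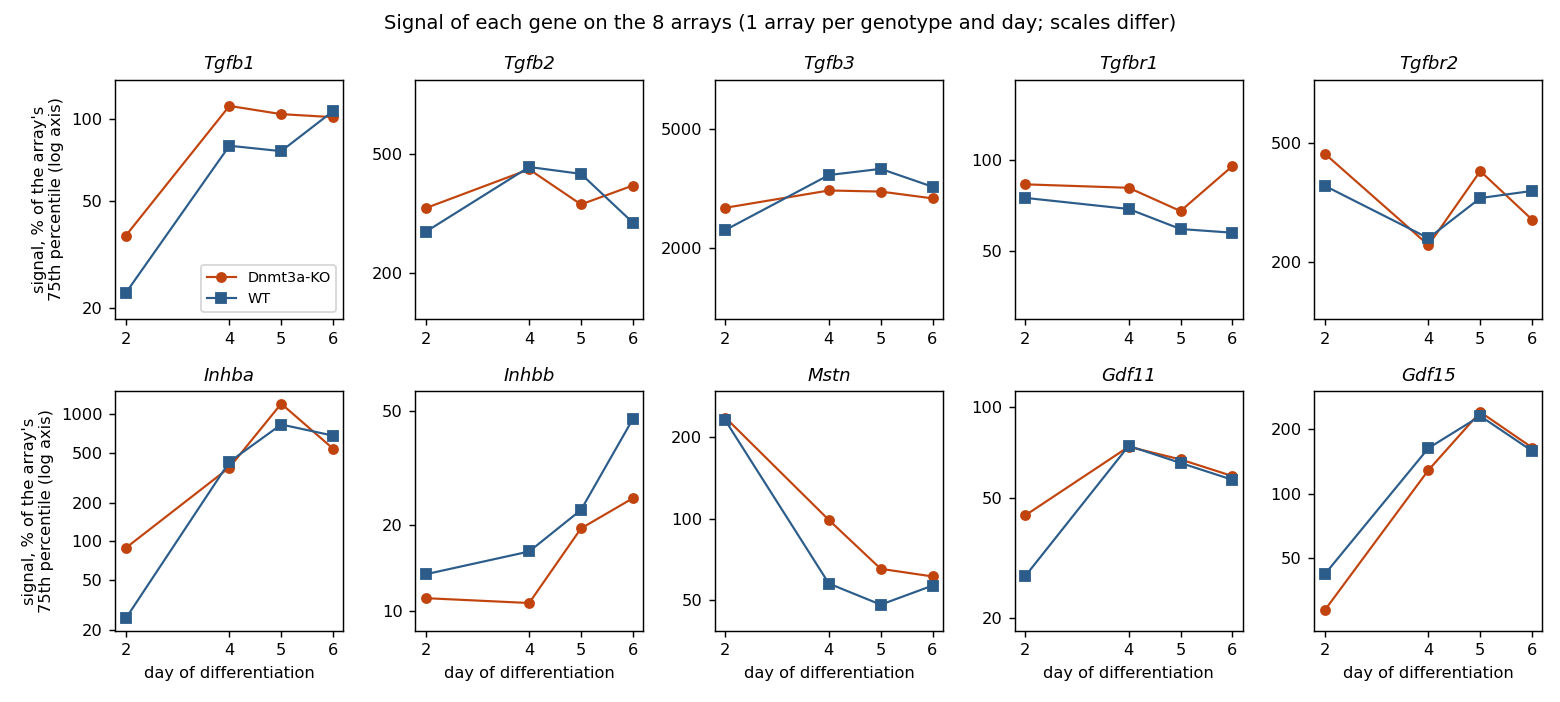
Signal of each of the 10 genes (percent of the array's 75th percentile, log axis) against day of differentiation, with 1 point per array, Dnmt3a-KO as orange circles and WT as blue squares. Day 2 stands apart in Tgfb1, Inhba, Gdf15 and Mstn in both genotypes, and the lines of the genotypes cross or run close in most panels.

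Tgfb1 encodes the TGF-beta ligand best known from fibrosis. In Dnmt3a-KO cells its signal was 37.1, 112, 104.5 and 102% (days 2, 4, 5 and 6, the order used throughout), against 22.8, 79.8, 76.2 and 107% in WT cells. Dnmt3a-KO was the higher on days 2, 4 and 5 and the lower on day 6, and the ranges of the genotypes overlapped. The differences on days 2, 4 and 5 were 0.70, 0.49 and 0.46. Within an array the 10 spots of the probe varied by 0.05 to 0.14 log2 units (SD), which does not include the spread between cultures. The mean difference of 0.39 ± 0.33 did not pass the test (limma adjusted p = 0.358).

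Tgfb2, the ligand known for heart and eye development, read 329, 443, 339 and 391% in Dnmt3a-KO cells, against 275, 451, 428 and 295% in WT cells. The direction differed between days, with a mean of 0.08 ± 0.33 (adjusted p = 0.834). A second Tgfb2 probe, on chr1 at 188447534 to 188447593 in mm9, gave 0.08 ± 0.31. Both probes thus put the genotypes within the spread between days.

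Tgfb3, known for palate closure and wound repair, read 2730.0, 3117, 3091 and 2934% in Dnmt3a-KO cells, against 2303, 3508, 3678 and 3207% in WT cells. Dnmt3a-KO was higher on day 2 alone, the mean difference being -0.08 ± 0.22 (adjusted p = 0.778). Its 10 spots varied by 0.03 to 0.14 log2 units (SD) within an array.

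Inhba encodes the subunit of activin A. Its signal was 88.9, 381, 1210 and 536% in Dnmt3a-KO cells, against 24.8, 422, 830.5 and 679% in WT cells. Dnmt3a-KO was higher on days 2 and 5 and lower on days 4 and 6. The day 2 difference of 1.84 was the only one of the 40 single-day member differences at 2-fold or more, and no test applies to 1 array per group. The share of all genes at 2-fold or more was 3.03% (day 2), 4.54% (day 4), 2.74% (day 5) and 3.2% (day 6). The mean of 0.47 ± 0.99 was smaller than its spread (adjusted p = 0.627), and without day 2 it was 0.02.

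Inhbb encodes the subunit of activin B. It read 11.1, 10.7, 19.4 and 24.8% in Dnmt3a-KO cells, against 13.4, 16.1, 22.5 and 46.8% in WT cells. It was the only member lower in Dnmt3a-KO on 4 of 4 days, with differences of -0.28, -0.60, -0.21 and -0.92 and a mean of -0.50 ± 0.32 (adjusted p = 0.300). The error estimate of the extraction software was 10.1 to 11.3% of the Inhbb signal, beside 10% for the bright Tgfb3 probe.

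Mstn read 237, 98.8, 65.1 and 61.0% in Dnmt3a-KO cells, against 231, 57.4, 48.0 and 56.5% in WT cells. Dnmt3a-KO was higher on 4 of 4 days, by 0.03, 0.78, 0.44 and 0.11, so that most of the mean of 0.34 ± 0.34 (adjusted p = 0.411) came from days 4 and 5, which share a slide. Gdf11, the close relative of myostatin, read 43.7, 74.0, 67.1 and 59.1% in Dnmt3a-KO cells, against 27.4, 74.5, 65.3 and 57.4% in WT cells. Its genotypes differed by 0.67 on day 2 and by at most 0.04 in either direction on the later days, with a mean of 0.19 ± 0.33 (adjusted p = 0.602). Gdf15 read 28.5, 129, 241 and 164% in Dnmt3a-KO cells, against 41.9, 163, 231 and 158% in WT cells. Dnmt3a-KO was the lower on days 2 and 4 and higher by 0.06 and 0.05 on days 5 and 6, with a mean of -0.20 ± 0.31 (adjusted p = 0.569).

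Of the receptors, Tgfbr1, the type I kinase of TGF-beta, read 83.3, 81.1, 67.9 and 95.7% in Dnmt3a-KO cells, against 75.1, 69.0, 59.2 and 57.5% in WT cells. Dnmt3a-KO was higher on 4 of 4 days, the most on day 6 (0.73), with a mean of 0.33 ± 0.27 (adjusted p = 0.369). A second Tgfbr1 probe, on chr4 at 47424946 to 47425005 in mm9, was also higher on 4 of 4 days, by 0.48 ± 0.25 (adjusted p = 0.264 in the fit of every probe). Tgfbr2, the type II receptor, read 459, 228, 402 and 277% in Dnmt3a-KO cells, against 359, 240.4, 327 and 345% in WT cells. Its direction changed from day to day (mean 0.06 ± 0.32, adjusted p = 0.857), and its second probe gave 0.20 ± 0.26 with Dnmt3a-KO higher on 3 days.

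**Figure D2:**
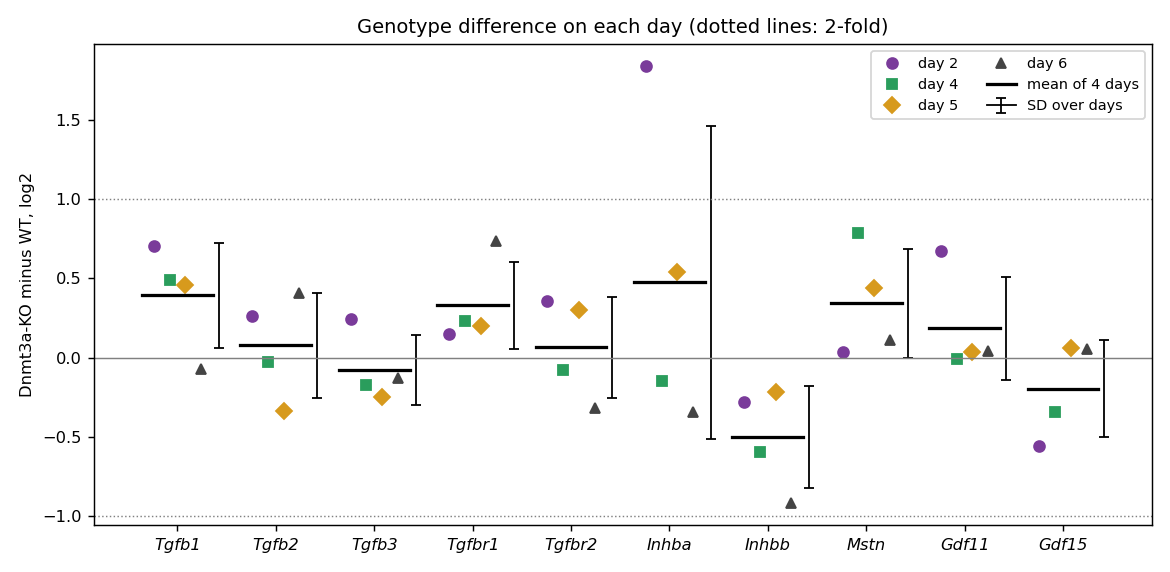
Dnmt3a-KO minus WT in log2 units for each gene, with 1 marker per day, a black line at the mean of the 4 days and a bar for the SD over days beside it. Inhba on day 2 (1.84) is the only marker past the dotted 2-fold lines, and Tgfbr1 and Mstn lie above 0 and Inhbb below 0 on all 4 days.

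Over the members, Tgfbr1 and Mstn were higher and Inhbb was lower on 4 of 4 days, 3 of 10 beside 22.7% of all genes with 1 direction on all 4 days. In no member did the 4 Dnmt3a-KO arrays stand clear of the 4 WT arrays (1.71% of all genes did). By direction and by overlap, the genotype differences of these 10 genes were therefore near the background of the array. The share at an unadjusted p under 0.05 was above it (3 of 10 members, 2531 of 19665 genes), and none of the 10 passed after adjustment. That count of members ranged from 0 to 4 over 17 alternative settings. It was 0 without day 4 and with no block, and 1 without day 5, with no filter on dim probes and with normexp.

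The change with day was larger. Of the 10 members, 4 rose and 1 fell with day in the fit over both genotypes, beside 45.4% of all genes that passed in either direction, so this share is close to the background. Inhba rose by 1.03 ± 0.21 log2 units per day (SE, limma adjusted p = 0.014) and Gdf15 by 0.62 ± 0.14 (adjusted p = 0.015). Tgfb1 rose by 0.46 ± 0.09 (adjusted p = 0.014) and Inhbb by 0.36 ± 0.08 (adjusted p = 0.016). Mstn fell, with a slope of -0.53 ± 0.09 (adjusted p = 0.011). The slopes of Tgfb2, Tgfb3, Tgfbr1, Tgfbr2 and Gdf11 did not pass. Without the day 5 arrays 0 members passed, with slopes of 0.92 (Inhba), 0.56 (Gdf15), 0.46 (Tgfb1), 0.37 (Inhbb) and -0.50 (Mstn). Without the day 2 arrays 0 passed as well, with slopes of 0.29, 0.08, 0.07, 0.69 and -0.18 in the same order, and with normexp background correction none passed.

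In Inhba, Gdf15, Tgfb1 and Mstn most of this change lay between day 2 and the later days. The mean of days 4 to 6, taken over log2 levels here and in the folds below, was 7.06-fold the day 2 signal in Dnmt3a-KO and 24.9-fold in WT cells for Inhba. For Gdf15 it was 6.05-fold in Dnmt3a-KO and 4.33-fold in WT cells, and for Tgfb1 2.86-fold in Dnmt3a-KO and 3.81-fold in WT cells. Mstn kept 0.309 of its day 2 signal in Dnmt3a-KO and 0.232 in WT cells. Inhbb differed from these: its later mean was 1.55-fold the day 2 signal in Dnmt3a-KO and 1.91-fold in WT cells, and its slope over days 4 to 6 alone was 0.69 log2 units per day, against 0.36 over all days. In 6 members both day 2 arrays lay outside the range of the other 6 arrays, as they did in 67.9% of all genes. Over days 4 to 6 alone, no member and no gene passed (0% of 19665). At an unadjusted p under 0.05 there were 2 of 10 members, Inhbb and Gdf11, and 1575 of 19665 genes.

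Days 4 and 5 shared a slide, so their difference does not carry the slide. Day 5 minus day 4 had 1 direction in both genotypes in 9 of 10 members, against 59.2% of all genes. Inhba was higher on day 5 by 1.67 in Dnmt3a-KO and 0.98 in WT cells, Gdf15 by 0.90 in Dnmt3a-KO and 0.50 in WT cells, and Inhbb by 0.86 in Dnmt3a-KO and 0.48 in WT cells. Mstn changed by -0.60 in Dnmt3a-KO and -0.26 in WT cells. Within the slide, 4 of the 5 genes with a called slope went the way of that slope, while Tgfb1 differed by -0.10 in Dnmt3a-KO and -0.07 in WT cells. The arrays of days 4 and 5 are also part of the slope fit, so this count only describes them. The matching share among all genes with a called slope was not counted. These differences have no test.

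**Figure D3:**
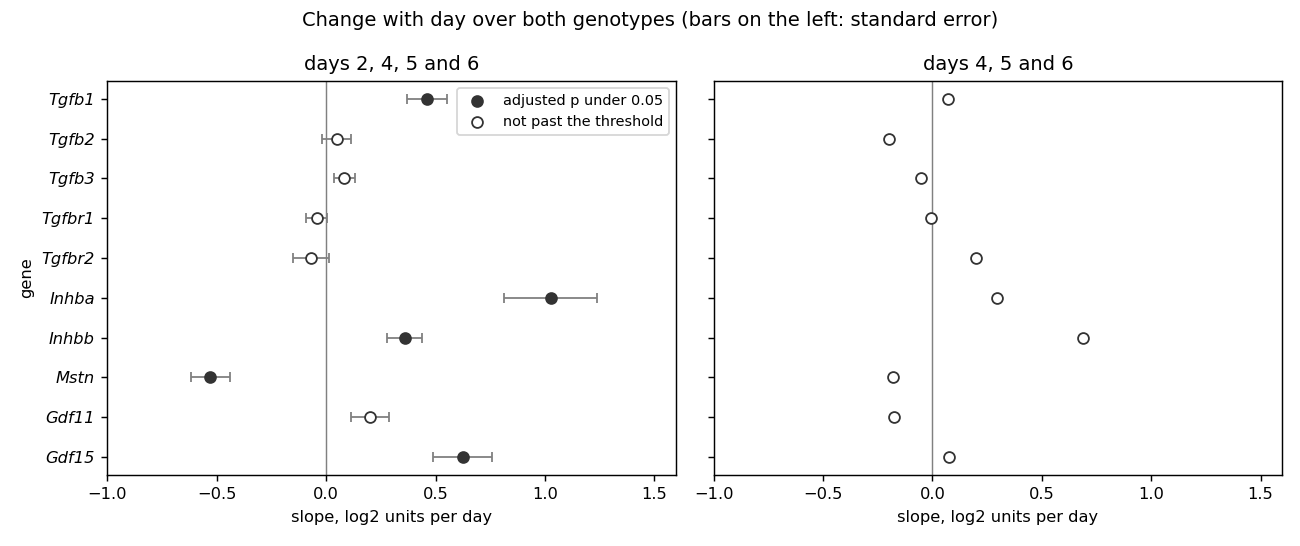
Change with day in log2 units per day over both genotypes, for all 4 days (left, bars are standard errors) and for days 4 to 6 (right), filled where the limma adjusted p was under 0.05. With all days 5 genes are filled, Inhba with the steepest slope at 1.03, and with days 4 to 6 none is.

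The slopes of the genotypes were not shown to differ: no member and no gene (0%) passed the interaction test. At an unadjusted p under 0.05 there were 0 members and 219 of 19665 genes. Inhba had the largest member interaction, -0.49 ± 0.42 log2 units per day (SE over the 8 arrays).

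The Inhba difference was positive on days 2 and 5 and negative on days 4 and 6. This order of signs was noticed in these data and then counted, so the counts only describe it. It was found in 9 of 18 listed TGF-beta and activin target genes, 6 of 14 latency and activation genes and 5.73% of all genes tested. Ltbp2 is in both of these lists, and Col1a1 is in the target and fibroblast lists. Among the members Tgfbr2 shared it. The counts were 2 of 7 smooth muscle and pericyte, 2 of 9 fibroblast, 1 of 4 adipocyte, 1 of 6 macrophage, 1 of 7 Schwann cell and 1 of 9 myogenic markers. They were 2 of 14 Smads and regulators, 2 of 12 stress genes and 1 of 7 other receptors, with 0 of 8 extracellular inhibitors and 0 of 5 endothelial markers. Among the target genes, the matricellular gene Ccn2 differed by 0.94, -1.25, 0.27 and -1.08. The collagen gene Col1a1 differed by 2.25, -2.49, 0.21 and -1.26. In levels, Col1a1 read 58.4, 242, 2462 and 513% in Dnmt3a-KO cells, against 12.3, 1361, 2131 and 1233% in WT cells. These 2 genes were chosen after their values were seen.

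The summed signal of 11 genes listed as fibro-adipogenic and fibroblast markers was 1570, 953.6, 4032 and 1464% in Dnmt3a-KO cells. It was 1640, 2447, 3766 and 2583% in WT cells, and 8 or 9 of the 11 genes were well above background on each array. The listed gene Tcf4 encodes a broadly expressed E protein, so its signal is not specific to fibroblasts. On day 2 Tcf4 made up 919 of the 1570% in Dnmt3a-KO cells and 931.5 of the 1640% in WT cells. In both genotypes the sum and Inhba peaked on day 5. On day 2, where Inhba was the higher in Dnmt3a-KO, the sum was slightly lower there, but its genes were split. Col1a1 (58.4 against 12.3% in WT), Twist2, Dcn and Pdgfra were higher in Dnmt3a-KO on day 2. Col3a1 (499 against 601% in WT), Tcf4, Ly6a, Fbn1 and Pi16 were lower. Col1a1 is itself in that list and made up 2462 of the 4032% on day 5 in Dnmt3a-KO cells. Col3a1, Pi16 and Tcf4 were lower in Dnmt3a-KO on 4 of 4 days, with Pi16 well above background on 2 of the 4 Dnmt3a-KO arrays. Pdgfra was higher in Dnmt3a-KO on 4 of 4 days, at 0.763 to 18.3% over the 8 arrays and at the floor on the WT day 2 array. Lum and Dpp4 were well above background on none. The part of fibroblast-lineage cells in the Inhba values was not tested. Of 9 macrophage and leukocyte markers, 5 or 6 were well above background on each array, with Itgam the brightest (774 to 2078%) and Cd68 and Lyz2 at the floor on all 8 arrays.

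**Figure D4:**
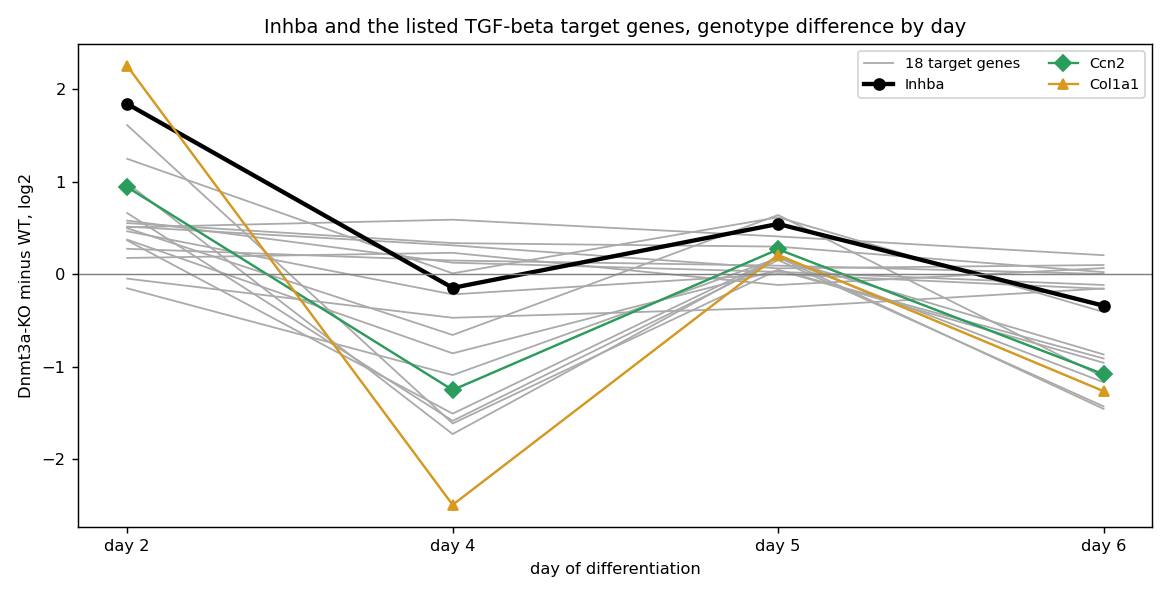
Dnmt3a-KO minus WT in log2 units on each day for Inhba (black, thick), the 18 listed target genes (grey lines) and 2 of them in colour. Inhba and Col1a1 lie above 0 on day 2 and below 0 on days 4 and 6, Col1a1 reaching -2.49 on day 4.

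Other genes of the pathway were read by role. None of the genes in the 6 further lists passed the genotype test, so the values that follow are those of the highest and lowest mean differences. Of all 19665 genes, 25.9% rose and 19.4% fell with day, the shares beside which the day counts of these lists stand. Of 7 tested receptors and co-receptors, 3 rose and 2 fell with day. The type II activin receptor Acvr2b, which also binds myostatin, differed by 0.40 ± 0.15 with Dnmt3a-KO higher on 4 of 4 days (adjusted p = 0.214), and the co-receptor Tgfbr3 by 0.34 ± 1.02. Acvr1, a type I receptor, gave -0.12 ± 0.23 and the nodal co-receptor Tdgf1 -0.05 ± 0.35.

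Of 8 tested extracellular inhibitors, 3 rose and 2 fell with day. Decorin (Dcn), a proteoglycan that binds TGF-beta, gave 0.74 ± 0.99, and Wfikkn2, which binds myostatin and Gdf11, gave 0.41 ± 0.20 and was higher on 4 of 4 days (adjusted p = 0.263). Inha, the inhibin subunit, gave -0.41 ± 1.03, and Lefty2, a nodal antagonist, -0.17 ± 0.34. Follistatin (Fst), which traps activin and myostatin and was named after its values were seen, rose with day by 0.56 log2 units per day (adjusted p = 0.016).

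Of 14 tested latency and activation genes, 4 rose with day and none fell. Lrrc32, which tethers latent TGF-beta at the cell surface, gave 0.07 ± 1.68, its single days running from 2.20 on day 2 to -1.81 on day 4. Integrin Itgav gave 0.06 ± 0.19, Itgb8 -0.36 ± 0.13 (lower on 4 of 4 days, adjusted p = 0.248) and the latent TGF-beta binding gene Ltbp3 -0.29 ± 0.33. The Itgb8 signal was dim, with mean log2 levels of -5.85 in Dnmt3a-KO and -5.50 in WT cells, near the floor of -7.03.

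Of 14 tested Smads and their regulators, 5 rose and 2 fell with day. Smad7, the inhibitory Smad that the pathway itself induces, gave 0.30 ± 0.22 with Dnmt3a-KO higher on 4 of 4 days (adjusted p = 0.347), and the repressor Skil gave 0.25 ± 0.21. The ubiquitin ligase Smurf2 gave -0.21 ± 0.38, and Zfyve9, an anchor for receptor Smads, -0.19 ± 0.15. Of the 18 target genes, 11 rose with day and none fell (25.9% and 19.4% of all genes). Of those that rose, Smad7 and Pmepa1 are also in the list of Smads and Ltbp2 in that of latency genes. Bhlhe40 gave 0.43 ± 0.17 (adjusted p = 0.214) and Tgfbi 0.37 ± 0.72, whereas the smooth muscle gene Tagln gave -0.55 ± 1.13 and the oxidase gene Nox4 -0.53 ± 0.94.

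Of 12 stress genes that commonly move with Gdf15, 8 rose and 1 fell with day (25.9% and 19.4% of all genes). Mdm2 gave 0.25 ± 0.17 and Cdkn1a 0.13 ± 0.11, both p53 targets, and the transcription factor Atf3 gave -0.39 ± 0.40 and the serine synthesis gene Psat1 -0.39 ± 0.11 (adjusted p = 0.192). Trib3, a stress-induced pseudokinase named after its values were seen, rose by 0.62 log2 units per day (adjusted p = 0.016), beside 0.62 for Gdf15.

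The genes with the most similar course over the 8 arrays were named by Pearson's r, as a description with no p. Because the 2 day 2 arrays stand apart, r mostly reflects that split in the genes that changed with day. The closest to Mstn were Polr3d (r = 0.996) and Usp54 (0.993), to Inhba Zbtb4 (0.996) and Vax2 (0.995), and to Gdf15 Dym (0.995) and Maff (0.993). Tgfb1 was closest to Mustn1 (0.994) and Orai2 (0.992), and Mia2 (0.989) was among the 2 closest to Gdf11. Tgfb3 was closest to Cnnm2 (0.991) and Snx29 (0.978), Tgfb2 to Emc1 (0.970) and Slc26a6 (0.966), and Inhbb to Aqp5 (0.966) and Ap1s1 (0.955). For the receptors these were Dennd6a (0.977) and Arhgef6 (0.957) with Tgfbr1, and Eml3 (0.971) and Cd80 (0.970) with Tgfbr2.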

How the data were processed

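Cy3-labelled RNA was read on 8 one-design Agilent arrays. Per the file headers, the authors extracted spot intensity with Feature Extraction 11.0.1.1 for the day 2 arrays and 9.5.3.1 for the other 6, on build mm9, while the submitters' processing notes name 9.5. The deposited value table holds a score per spot, which equalled 100 times the signal over the array's 75th percentile on 43020 of 43020 spots to within 1, with a median of 6 on each array. Here the processed intensity was divided by the 75th percentile, floored at 0.763% and taken to log2, outlier spots were left out and spots of a probe averaged. For each gene the probe with the highest mean was kept if 4 or more of the 8 arrays measured it well above background. Tests used limma 3.58.1 (R 4.3.3) with Benjamini-Hochberg adjustment over 19665 genes and a threshold of 0.05: genotype with day as block, day slope with genotype as covariate, and their interaction. The steps were tested on simulated data. Named were all members and, per list, the 2 highest and 2 lowest genotype differences, plus the 2 genes most like each member; some items under this rule are not reported here. Members and lists were chosen with earlier results of these data known. The number of arrays limits precision.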

Additional observations from a re-analysis of the deposited data

Results flagged for a closer look

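In 4 of 30 sets of 4 values (each member's 4 arrays of a genotype, or its 4 single-day differences), 1 value lay far from the other 3 by Dixon's gap over range. The rule flags about 1 in 20 sets when the 4 values are drawn alike. That rate does not apply here, because the values are different days, day 2 had its own slide and scanner, and the sets share arrays. The Tgfb1 signal of the Dnmt3a-KO day 2 array (37.1% of the array's 75th percentile) was the lowest of its genotype, and the Mstn signal of the WT day 2 array (231.5%) was the highest of its genotype. The Gdf11 genotype difference on day 2 (0.67) and the Tgfbr1 difference on day 6 (0.73) were each the highest of the 4 days. Of these 4 values, 3 came from day 2.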

How the results depend on the processing

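The count of members with a genotype effect stayed at 0 in 17 alternatives and that of the interaction at 0 in 14. The count of members with a day slope was 5, and 0 to 6 when each day was left out, with 0 without day 2 and 0 without day 5 (where the 5 slopes stayed near their values, at adjusted p of 0.060 to 0.066); it was 4 with slide as a random block. The slope over all genes, 8922, was 0 to 9863 when days were left out (0 without day 2, 392 without day 5) and 1935 with slide as a random block. Normexp was run with 2 estimates, the other (maximum likelihood) added after the values of the planned one were seen, and both lifted the 5th percentile intensity of the WT arrays of day 2 (1851 and 1915) and day 6 (1497 and 1551), against 64.4 to 227.7 on the other 6. Under both, 0 members and 0 genes had a day slope, 5 single-day member differences reached 2-fold, and the genotype effect turned for Tgfb3 (0.49 and 0.51) and Gdf11 (-0.22 and -0.23). It was 0.04 for Tgfb1, 0.045 and 0.046 for Tgfbr1, -1.02 and -1.03 for Inhbb, 0.46 for Tgfb2 and 0.47 and 0.48 for Tgfbr2, with 1 member at an unadjusted p under 0.05. At 1.5-fold there were 7 single-day member differences. The count of all genes with a genotype effect, 2, was 0 under quantile, median and both normexp settings, the deposited table, no filter, no block and each left-out day, and 38 with the 8 of 8 filter, 8 with every probe, 93 with trend and robust, 19 with slide as block and 128 with day as random block. Directions turned for the Tgfbr1 slope (0.0477) and Tgfbr2 slope (0.0216) with the mean of probes and the Tgfbr2 slope with slide as a random block (0.0162). With days left out, the genotype effect ranged from -0.0319 (without day 2) to 0.192 for Tgfbr2, also turning without day 5 (-0.0131), and from -0.0338 (without day 6) to 0.215 for Tgfb2. The slopes turned without day 2, ranging from -0.198 to 0.138 for Tgfb2, -0.0541 to 0.151 for Tgfb3, -0.103 to 0.201 for Tgfbr2 and -0.175 to 0.346 for Gdf11. The cause was not tested. The genotype fit pairs the arrays of each day through the day block; the labels carry no replicate numbers to pair by.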
